A study of Mus musculus with 30 samples.

Results

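The 10 genes described here encode core and associated subunits of the Polycomb repressive complexes: Ezh1, Ezh2, Eed, Suz12 and Jarid2 of PRC2, and Bmi1, Rnf2, Cbx2, Cbx7 and Cbx8 of PRC1. They were chosen by name from a read count table of 33924 genes, and all 10 were in the table and passed the filter on low counts, which kept 19016 genes. RNA had been sequenced from mouse thyroids labelled wild type, Arid1a KO, Braf(V600E), and Braf(V600E) with Arid1a KO, Arid2 KO or Smarcb1 KO. The wild-type and Arid1a KO mice were untreated. The 4 genotypes with mutant Braf, a constitutively active kinase of the MAPK pathway, received either vehicle or CH5126766, an inhibitor of the RAF and MEK kinases that the labels call CKI, over 8 days, and the thyroids were taken about 2 h after the final dose. All 4 therefore shared the Braf mutation, and none of the drug comparisons has a group without it. Comparisons of a mutant Braf group with wild type or Arid1a KO set dosed against untreated mice, so mutation and dosing cannot be told apart. Below, mutant Braf in those comparisons means both together. The title states the series' interest in SWI/SNF mutations, thyroid tumour progression and resistance to redifferentiation therapy. The driver of the alleles, the age of the mice and whether animals were pooled are not given in the sources used here. Below, Braf stands for Braf(V600E) and KO for the labelled knockout.

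PRC2 places methyl groups on histone H3 at lysine K27, with Ezh2 or its paralog Ezh1 as the catalytic subunit and Eed and Suz12 as obligate partners. PRC1 reads that mark through Cbx proteins and ubiquitinates histone H2A through Rnf2, held by a Pcgf protein such as Bmi1. SWI/SNF remodellers, to which Arid1a, Arid2 and Smarcb1 belong, are known to oppose Polycomb silencing, and Ezh2 is known as the form of dividing cells while Ezh1 is also made in resting ones.

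Of the 30 samples described, 28 were analysed here, with 3 libraries a group and 2 in both Braf Arid2 KO groups. Library totals ran from 23879271 to 34400066 counts. Values are CPM, the counts of a gene scaled to its library's total after TMM normalization, and n is the number of libraries. Whether each library is a different mouse is not stated in the labels. The p-values therefore cover only library-to-library spread, which may be technical. Smarcb1 counts checked the labels: 2.28 to 17.9 CPM in Braf Smarcb1 KO under vehicle and 11.9 to 47.4 under CKI, against 57.0 to 131 in Braf under vehicle. The Arid1a KO libraries also had low Smarcb1, 15.1 to 62.5 CPM. Whole-gene counts of Arid1a and Arid2 cannot check a deletion of part of the gene, and Arid2 was not called lower in the Braf Arid2 KO libraries (15.5 and 37.5 CPM under vehicle, against 7.03 to 19.7 in Braf). All 14 thyroid follicular markers had counts in every group. Every sample carries both a text on frozen whole thyroids, for wild type, Arid2 and Smarcb1 mice, and one on sorted YFP+ cells, so preparation and genotype cannot be told apart. In RNA from mixed cells, fewer cells of a type and less RNA per cell cannot be told apart either.

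Promoter sequence is shown for the 3 members on which the results turn: Ezh2 and Ezh1, which moved in opposite directions with Smarcb1 loss under vehicle, and Cbx7, which had the widest span of group means. The stretches come from RefSeq on GRCm38.p6, upstream of the annotated start and outside annotated exons. All lie on the minus strand, and capitals mark CG dinucleotides, the sites of DNA methylation and a known feature of Polycomb-bound DNA. The count table was made on another build (mm9), so no coordinates are given for its genes.
Ezh2, chr6:47595059-47595183: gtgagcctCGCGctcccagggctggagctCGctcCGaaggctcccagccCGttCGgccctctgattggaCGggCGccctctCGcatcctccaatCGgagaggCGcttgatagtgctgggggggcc
Cbx7, chr15:79932769-79932896: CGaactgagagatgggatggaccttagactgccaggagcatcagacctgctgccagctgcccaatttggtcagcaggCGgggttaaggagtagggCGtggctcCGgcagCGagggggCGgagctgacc
Ezh1, chr11:101226464-101226713: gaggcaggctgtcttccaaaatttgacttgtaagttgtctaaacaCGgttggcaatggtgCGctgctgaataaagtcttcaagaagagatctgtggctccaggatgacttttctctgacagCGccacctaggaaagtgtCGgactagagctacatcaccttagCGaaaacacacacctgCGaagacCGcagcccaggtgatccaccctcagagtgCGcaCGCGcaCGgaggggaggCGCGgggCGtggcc
The Ezh2 stretch holds 11 CG dinucleotides in 125 bases, the Cbx7 stretch 6 in 128 and the Ezh1 stretch 14 in 250. RefSeq windows were found for 9 of the 10 members (10 windows, with 2 for Jarid2). In the 250 bases before the start they held 12 to 37 CG dinucleotides, against a median of 6 over 32851 windows of all genes. Ezh2's window held 23, Cbx7's also 23 and Ezh1's 14.

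Each window was searched on both strands for 6 short motifs linked to the cell cycle, MAPK output and E-box factors. Ezh1, Ezh2, Jarid2 and Rnf2 held none of these letter strings. The cell cycle element TTTGAA was in the Eed, Suz12 and Cbx7 windows and in 16.0% of all windows. Suz12 also held the E2F core TTCCCGC, found in 3.82% of windows, and none held TTGGCGC, found in 1.97%. The E-box CACGTG was in the Bmi1 and Cbx8 windows and in 6.02% overall. The ETS core CCGGAAG (6.91% of windows) and the AP-1 element TGACTCA (4.46%) were in no member's window. No matched strings overlapped.

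**Figure D1:**
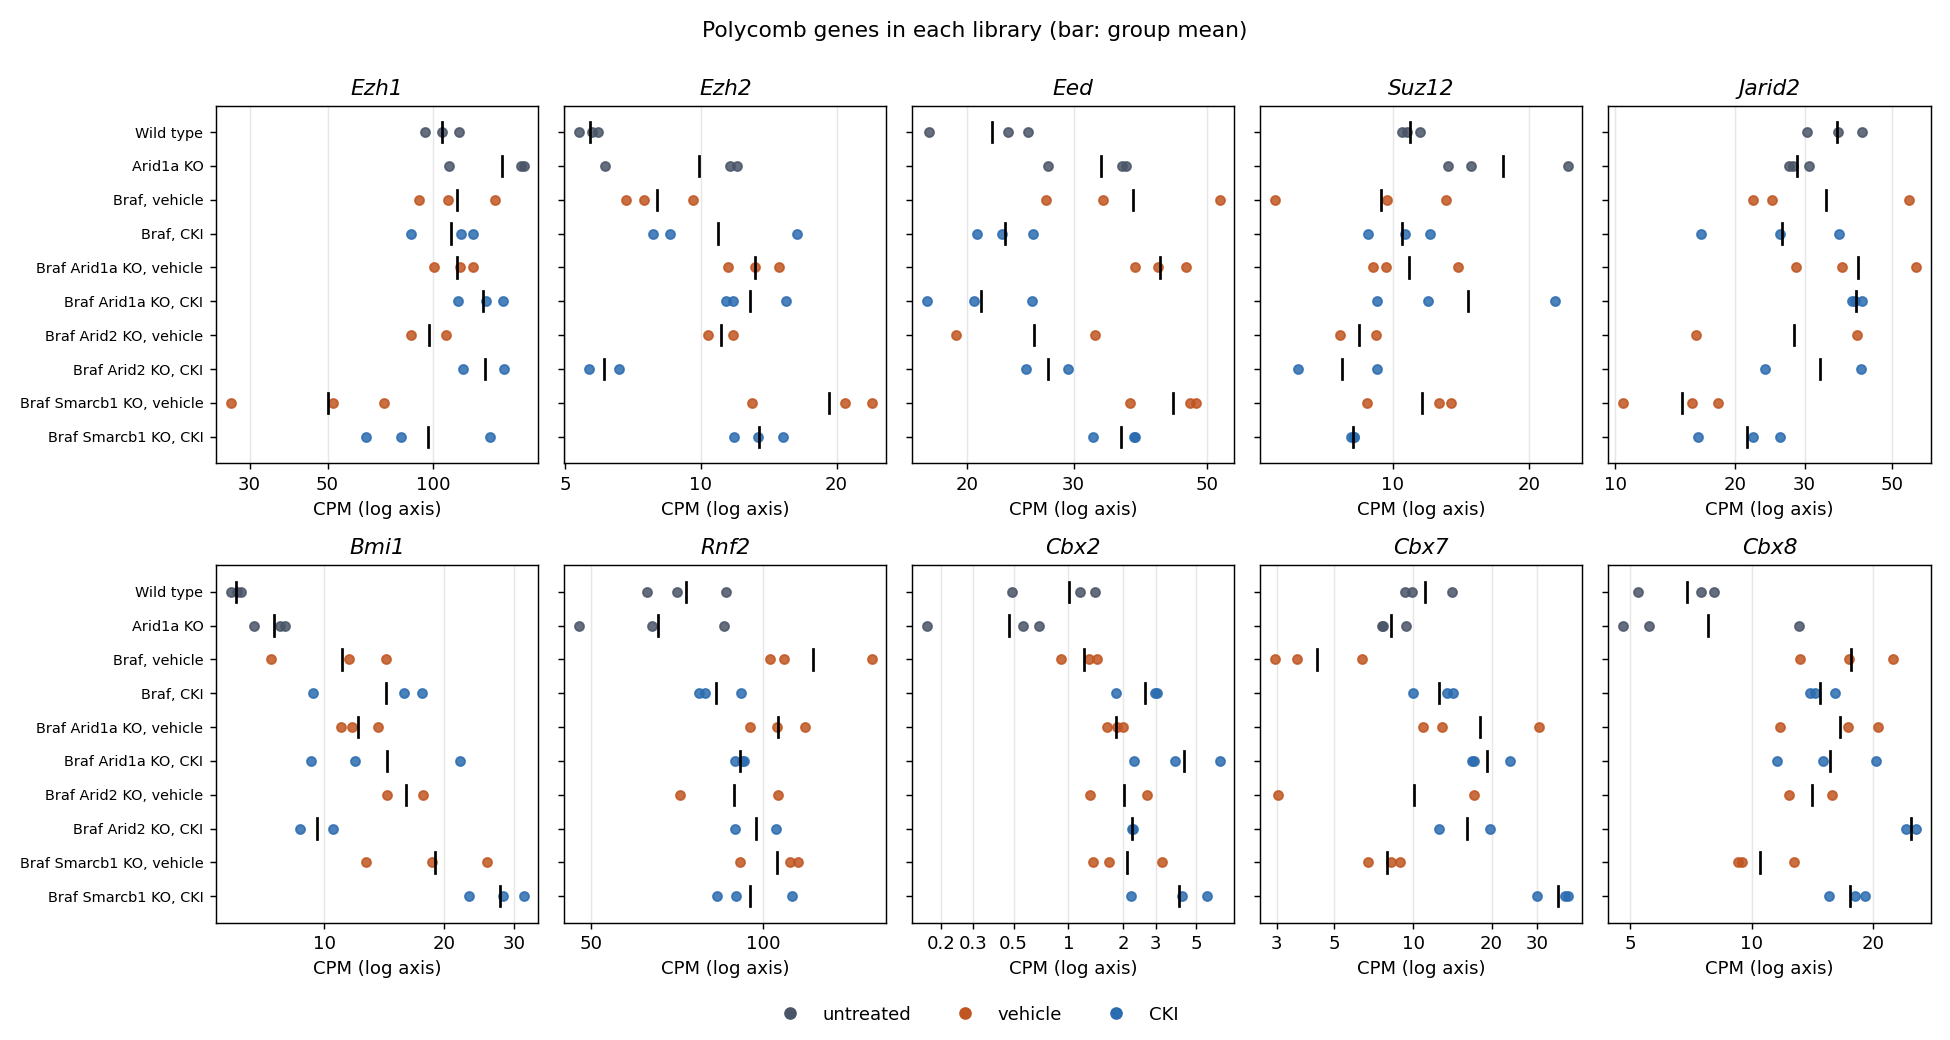
Level of each of the 10 genes in each of 28 libraries, in CPM on a log axis, by group, with points for libraries, bars for group means and colours for untreated, vehicle and CKI. Ezh1 is lowest and Ezh2 highest in Braf Smarcb1 KO under vehicle, and Cbx7 is highest in Braf Smarcb1 KO under CKI.

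Group means of log2(CPM + 1) spanned 2.84 units for Cbx7, from Braf under vehicle to Braf Smarcb1 KO under CKI, and 2.02 for Bmi1, from wild type to Braf Smarcb1 KO under CKI. The spans of Cbx2, Cbx8, Ezh1, Ezh2 and Jarid2 lay between 1.43 and 1.77. Suz12 (1.06), Eed (1.03) and Rnf2 (0.91) varied least between groups. The median SD within groups was 0.20 for Ezh2 and Rnf2 and 0.44 for Jarid2, the gene with the noisiest replicates. Cbx2 was the least sequenced member, with 4 to 214 counts a library, and its values are the least precise. Neighbouring groups in the order of a gene's means mostly overlapped. For Cbx7, Braf Smarcb1 KO under CKI was the one group clear of its neighbour. For Bmi1, wild type, Arid1a KO and the next group, Braf Arid2 KO under CKI, did not overlap in turn.

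The members that passed an adjusted p of 0.05 in edgeR's quasi-likelihood test, with Benjamini-Hochberg adjustment over all genes, were counted for each comparison. Under vehicle, Smarcb1 loss changed 3 of the 10 (Ezh1, Ezh2, Jarid2), where 28.6% of all genes tested were called. Arid1a loss under vehicle changed 1 (Cbx7; 9.56% of all genes) and Arid2 loss 0 (3.61%). Under CKI, Smarcb1 loss changed 2 (Bmi1, Cbx7; 17.1%), and edgeR called 0 members for loss of Arid1a (2.30%) or Arid2 (1.27%). Of these comparisons without calls, edgeR's unadjusted p was under 0.05 for 1 member with Arid2 loss under vehicle (Cbx7), for 0 with Arid1a loss under CKI and for 1 with Arid2 loss under CKI (Ezh2), and DESeq2 called 0 in each. Given this background, the Smarcb1 share of the members was close to that of all genes.

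CKI against vehicle changed 1 member in Braf (Cbx7; 13.0% of all genes), 1 in Braf Arid1a KO (Eed; 4.51%), 0 in Braf Arid2 KO (3.37%) and 1 in Braf Smarcb1 KO (Cbx7; 3.85%). In Braf Arid2 KO, 1 member (Ezh2) had an unadjusted edgeR p under 0.05 and DESeq2 called 0. Averaged over the 4 genotypes, the drug changed 3 (Eed, Cbx2, Cbx7; 19.6%). Braf under vehicle differed from wild type in 4 members (Eed, Rnf2, Cbx7, Cbx8; 20.0%) and Braf under CKI in 3 (Ezh2, Bmi1, Cbx8; 17.2%). Arid1a KO alone differed from wild type in 0 (18.6%), with 2 members at an unadjusted edgeR p under 0.05 and called by DESeq2 (Ezh2, Eed). Both were also called by edgeR without Arid1a KO replicate 2, the library with the least Ezh2 and Eed of its group. Mutant Braf on the Arid1a KO background changed 4 (Rnf2, Cbx2, Cbx7, Cbx8), where 40.5% of all genes were called. These comparisons share control groups, so their counts are not independent of each other.

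Whether the drug response differed between a KO genotype and Braf was tested as a difference of responses, and edgeR called 0 members for Arid1a, Arid2 and Smarcb1 loss. The shares of all genes were 0.00%, 8.66% and 0.305%. Unadjusted p-values were under 0.05 for 1, 2 and 3 members in turn, and DESeq2 called 0 in each. The member nearest the threshold was Ezh2 with Arid2 loss (difference of log2 responses -1.31, SE 0.49, adjusted p = 0.0954 in edgeR).

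**Figure D2:**
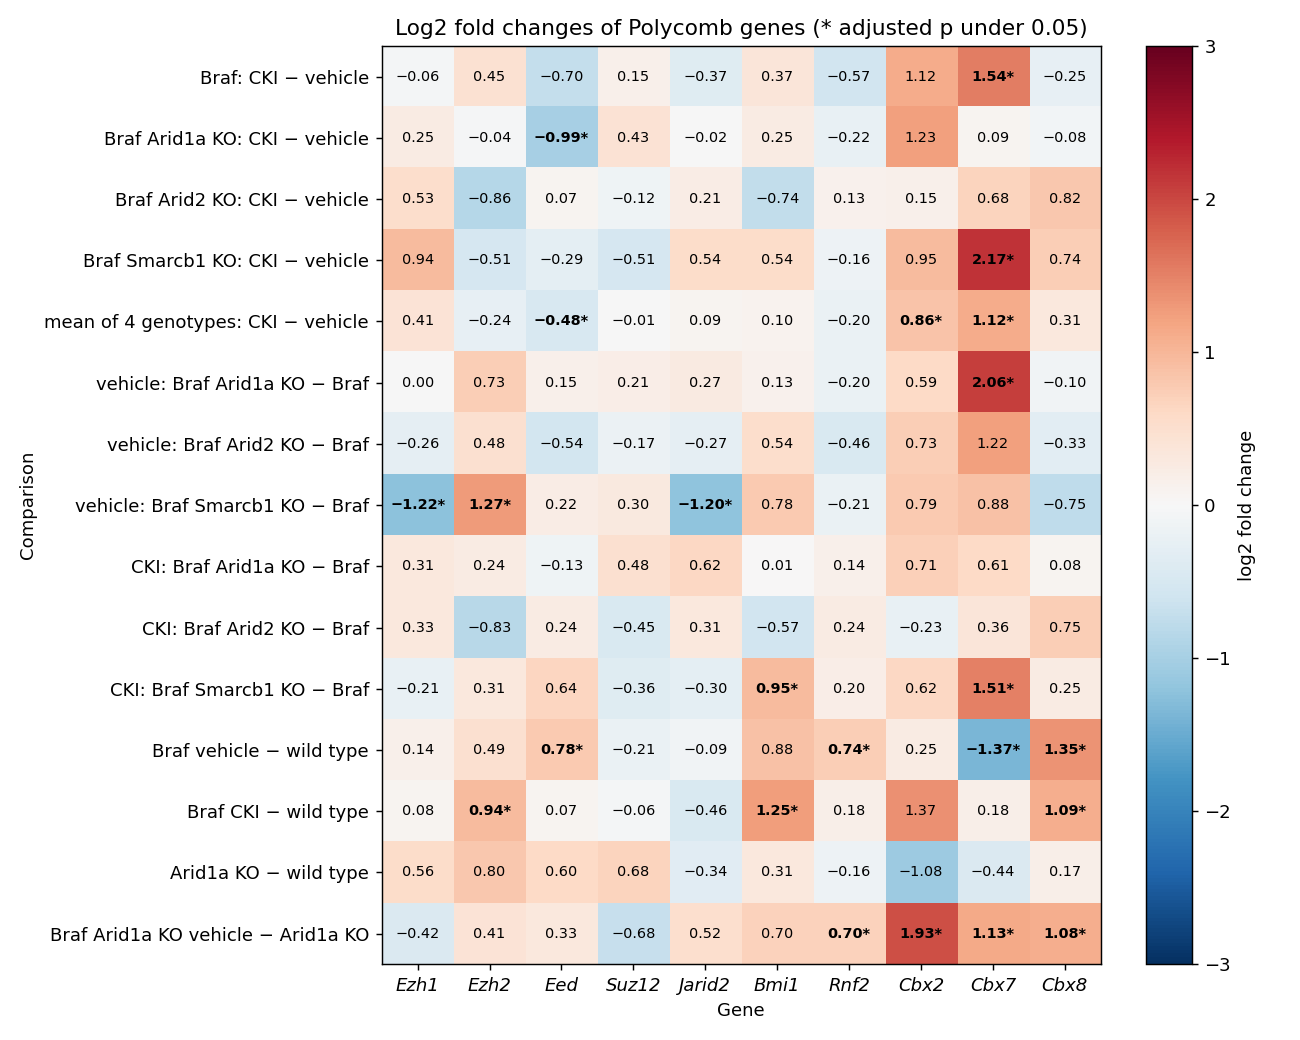
Log2 fold changes of the 10 genes (columns) in 15 comparisons (rows, named as first group minus second), from the edgeR fit. Stars mark an adjusted p under 0.05: Ezh1 and Jarid2 are lower and Ezh2 higher with Smarcb1 loss under vehicle, and Cbx7 is higher with CKI in Braf and Braf Smarcb1 KO.

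The catalytic subunits of PRC2 moved in opposite directions with Smarcb1 loss under vehicle. Ezh2 stood at 13.0, 23.9 and 20.9 CPM in the Braf Smarcb1 KO vehicle libraries and at 9.63, 6.84 and 7.47 CPM in the Braf vehicle libraries. The groups did not overlap, and Ezh2 rose by a log2 fold change of 1.27 (SE 0.31, adjusted p = 0.00440). Ezh1 stood at 72.3, 51.9 and 26.5 CPM, against 91.0, 150.1 and 109.9 CPM in Braf. Every Smarcb1 KO library was below every Braf library, and the log2 fold change was -1.22 (SE 0.33, adjusted p = 0.00777). Jarid2, which helps recruit PRC2 to its targets, was at 18.2, 15.6 and 10.4 CPM against 22.2, 54.9 and 24.8 CPM. It fell by 1.20 on the log2 scale (SE 0.39, adjusted p = 0.0226), and the highest Braf library, replicate 4, carried much of that difference. Without it the Jarid2 log2 fold change was -0.71 (adjusted p = 0.182), and the call was also lost without Braf Smarcb1 KO vehicle replicate 2 (adjusted p = 0.0505) or 3 (adjusted p = 0.0877). Ezh1 and Ezh2 kept their calls whichever library was left out. All 3 calls were lost when only these 2 groups entered the fit, with adjusted p = 0.0687 for Ezh1, 0.0681 for Ezh2 and 0.0995 for Jarid2.

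Cell cycle genes moved with Ezh2 in these libraries: 24 of 26 were called higher with Smarcb1 loss under vehicle, with a median log2 fold change of 2.54, against 0.03 over all genes. Their mean level, in log2(CPM + 1), was 5.80 ± 0.80 (SD, n = 3) in Braf Smarcb1 KO under vehicle and between 2.55 and 3.91 in every other group. With that level as a covariate over all libraries, the Ezh2 log2 fold change was 1.40 (adjusted p = 0.0518) and that of Ezh1 -1.95 (adjusted p = 0.00926). The leukocyte markers also differed: the 7 genes, all with counts, summed to 136 to 377 CPM in Braf Smarcb1 KO and 806 to 1420 in Braf under vehicle. Adding the leukocyte level to the fit gave log2 fold changes of 1.07 for Ezh2 (adjusted p = 0.102), -1.60 for Ezh1 (adjusted p = 0.0340) and -0.95 for Jarid2 (adjusted p = 0.315). The 10 fibroblast markers, 6 of them called lower, summed to 1623 to 2845 CPM in Braf Smarcb1 KO and 1129 to 24165 in Braf. Of the 14 thyroid follicular markers 7 were called lower and 1 higher, and they summed to 175 to 495 and 821 to 1475 CPM. The part of those cells in the results was not tested.

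Under CKI the catalytic subunits of Braf Smarcb1 KO lay nearer to the other groups. Ezh2 was at 13.4, 11.9 and 15.2 CPM and Ezh1 at 80.9, 64.2 and 145 CPM, both overlapping the vehicle libraries. Neither change with drug passed the test there (Ezh2 log2 fold change -0.51, adjusted p = 0.401, and Ezh1 0.94, adjusted p = 0.108). Under CKI, Braf Smarcb1 KO and Braf libraries overlapped for both genes. Neither difference was called by edgeR (Ezh2 log2 fold change 0.31, adjusted p = 0.566, and Ezh1 -0.21, adjusted p = 0.726). Of the cell cycle genes, 11 of 26 fell with the drug in this genotype. The log2 ratio of Ezh2 to Ezh1 counts was -2.48, -1.12 and -0.35 in Braf Smarcb1 KO under vehicle. Under CKI it was -3.25 to -2.44, and over all other groups it ran from -4.81 to -2.40. As a ratio of counts it depends on gene length, so only its change between libraries is read.

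**Figure D3:**
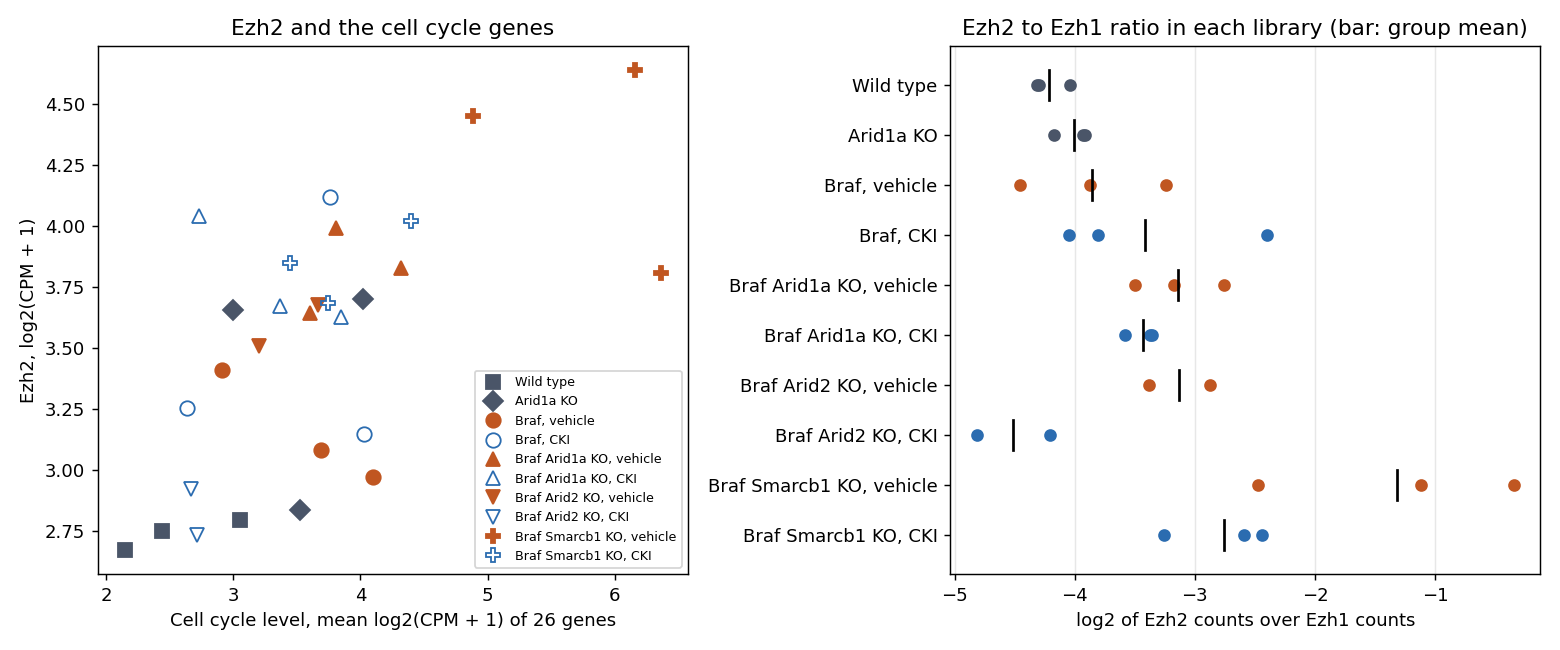
Left, Ezh2 against the mean level of 26 cell cycle genes in each library, both in log2(CPM + 1); right, log2 ratio of Ezh2 to Ezh1 counts in each library, with bars for group means. The 3 Braf Smarcb1 KO vehicle libraries have the highest cell cycle levels, and their mean ratio of -1.31 is the highest of the 10 groups.

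In the other genotypes Ezh2 was lowest in wild type, at 5.93, 5.37 and 5.73 CPM. The Braf vehicle libraries were all above these but did not pass the test (log2 fold change 0.49), while Braf under CKI, at 8.54, 16.4 and 7.85 CPM, did (0.94, SE 0.31, adjusted p = 0.0394). That call was lost without the library at 16.4, Braf CKI replicate 4, where the log2 fold change was 0.53 (adjusted p = 0.310). It was also lost without any 1 of the wild-type libraries (adjusted p 0.0968 to 0.120). In all, the call was lost in 9 of 13 alternatives, among them RLE scaling, no filter and a fit of only the groups compared. Under CKI, Ezh2 of Braf Arid2 KO was at 6.58 and 5.65 CPM, below 10.4 and 11.8 under vehicle, with an adjusted p of 0.201.

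Eed, the PRC2 subunit that binds methylated H3K27, was called lower under CKI in Braf Arid1a KO and in the average over the 4 genotypes. In Braf Arid1a KO it was at 20.5, 25.6 and 17.1 CPM under CKI and 41.4, 37.9 and 46.1 CPM under vehicle. The groups did not overlap, and Eed fell by 0.99 on the log2 scale (SE 0.26, adjusted p = 0.0313). In Braf the CKI libraries (22.8, 25.7 and 20.8 CPM) were likewise below all vehicle libraries (52.4, 27.1 and 33.5), without passing the test (log2 fold change -0.70, adjusted p = 0.0709). Braf Arid2 KO (log2 fold change 0.07, adjusted p = 0.936) and Braf Smarcb1 KO (-0.29, adjusted p = 0.603) overlapped between treatments. The average over the 4 genotypes was -0.48 (SE 0.14, adjusted p = 0.0154). Leaving out Braf Arid2 KO vehicle replicate 4 or CKI replicate 4 ended the average's call (adjusted p = 0.0844 and 0.0538). The call in Braf Arid1a KO was lost without any of the vehicle libraries or CKI replicates 2 and 5 (adjusted p 0.0566 to 0.124). The average with the leukocyte level in the fit was -0.33 (adjusted p = 0.549), and with the cell cycle level -0.51 (adjusted p = 0.0633).

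Against wild type (23.3, 17.3 and 25.2 CPM), all Braf vehicle libraries had more Eed, with a log2 fold change of 0.78 (SE 0.26, adjusted p = 0.0349). It was 0.45 (adjusted p = 0.275) without Braf vehicle replicate 2, the highest library, and 0.86 and 0.65 (adjusted p = 0.0582 and 0.150) without wild-type replicates 1 and 2. Suz12, the scaffold of PRC2, passed the test in none of the 19 comparisons fitted with edgeR, nor was its unadjusted p under 0.05 in any. DESeq2 called it in 1, lower in Braf Arid1a KO under vehicle than in Arid1a KO (log2 fold change -0.80, DESeq2 adjusted p = 0.0436). Its libraries ran from 5.50 CPM in Braf vehicle to 24.3 in Arid1a KO, and the Arid1a KO group (24.3, 13.3 and 14.9 CPM) was above wild type (11.5, 10.8 and 10.5) with an adjusted p of 0.176.

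Cbx7, a PRC1 subunit that reads methylated H3K27, was the member with the largest drug change in Braf, in Braf Smarcb1 KO and in the average, but not in Braf Arid1a KO or Braf Arid2 KO. In Braf its vehicle libraries were at 2.95, 6.37 and 3.58 CPM and its CKI libraries at 14.2, 9.99 and 13.5 CPM. The groups were apart, with a log2 fold change of 1.54 (SE 0.46, adjusted p = 0.0305). Braf Smarcb1 KO went from 6.70, 8.20 and 8.95 CPM to 39.2, 30.0 and 38.3 CPM, with the largest of all Cbx7 drug changes (2.17, SE 0.46, adjusted p = 0.0100). In Braf Arid2 KO vehicle libraries were at 17.1 and 3.04 CPM and CKI libraries at 12.6 and 19.7. Those overlapped, as did Braf Arid1a KO, at 30.3, 10.9 and 12.9 CPM under vehicle and 17.2, 16.8 and 23.5 under CKI. Averaged over the 4 genotypes, Cbx7 rose by 1.12 on the log2 scale (SE 0.24, adjusted p = 0.00187), and this call held without any 1 of the 22 libraries (adjusted p up to 0.00904). The single-genotype calls were weaker: the one in Braf was lost without any 1 of 5 of its 6 libraries (vehicle replicates 2 and 5 and CKI replicates 1, 4 and 5; adjusted p 0.0544 to 0.113), and the one in Braf Smarcb1 KO without vehicle replicate 1 (adjusted p = 0.0611).

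Other cell markers moved with Cbx7. The leukocyte markers summed to 806 to 1420 CPM in Braf under vehicle and 164 to 299 under CKI, and all 7 were called lower there and in the average. Adding the leukocyte level to the fit gave Cbx7 log2 fold changes of 1.19 in Braf (adjusted p = 0.513), 2.06 in Braf Smarcb1 KO (adjusted p = 0.0218) and 0.88 in the average (adjusted p = 0.298). In Braf Smarcb1 KO the leukocyte markers summed to 136 to 377 CPM under vehicle and 99.1 to 173 under CKI (median log2 fold change -0.89, none past the threshold). There the cell cycle covariate gave a Cbx7 change of 1.81 (adjusted p = 0.263). Thyroid follicular markers rose with CKI: 12 of 14 in Braf and in the average and 8 of 14 in Braf Smarcb1 KO, where their sum went from 175 to 495 CPM to 1763 to 2914. Their part in the Cbx7 change was not tested. Cbx7 overlaps Apobec3 on the opposite strand, and Ezh2, Eed, Suz12 and Rnf2 likewise overlap Gm26625, E230029C05Rik, Gm26563 and Trmt1l in turn. The kit's strand setting is not stated, and what these overlaps add to the members' counts was not tested. Apobec3 itself was called in none of the drug comparisons (average drug change 0.07, adjusted p = 0.907). It ran from 36.2 to 160 CPM in Braf Arid1a KO under vehicle and from 31.6 to 72.5 in Braf under vehicle (log2 fold change 0.84, adjusted p = 0.310 in edgeR). In Braf Arid2 KO under vehicle it was at 25.9 and 119 CPM. In Braf Smarcb1 KO it ran from 46.9 to 64.5 CPM under vehicle and from 53.1 to 58.2 under CKI.

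**Figure D4:**
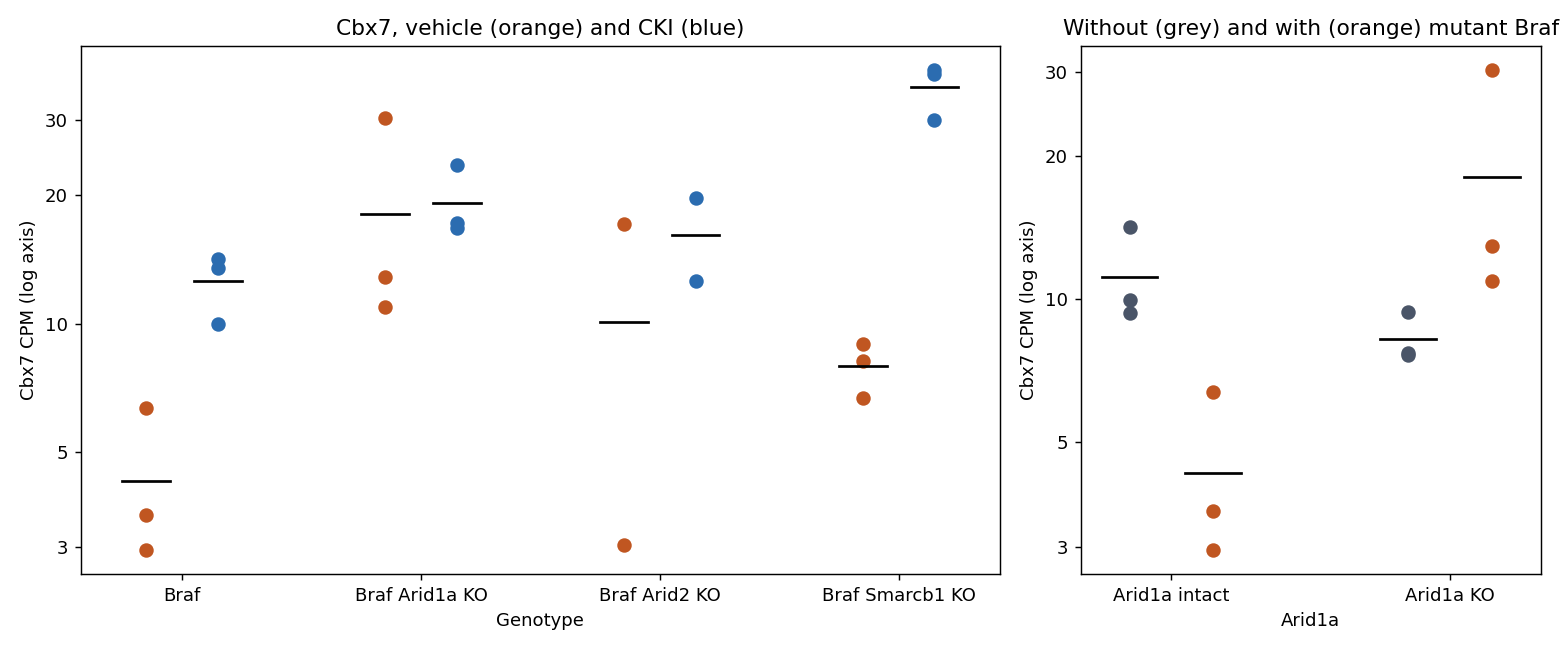
Cbx7 in each library, in CPM on a log axis, with bars for group means: left, vehicle and CKI in the 4 Braf genotypes; right, without and with mutant Braf, for intact Arid1a and Arid1a KO. The 3 Braf vehicle libraries lie below all 3 wild-type libraries, and the 3 Braf Arid1a KO vehicle libraries above all 3 Arid1a KO libraries.

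The effect of mutant Braf with its vehicle dosing on Cbx7 had opposite signs with and without Arid1a. Braf under vehicle was below wild type (9.32, 14.1 and 9.92 CPM), with a log2 fold change of -1.37 (SE 0.46, adjusted p = 0.0370). Braf Arid1a KO under vehicle, in contrast, was above Arid1a KO (9.36, 7.62 and 7.70 CPM), by 1.13 (SE 0.45, adjusted p = 0.0482). Both pairs of groups were apart, and both calls were fragile. The first was lost without Braf vehicle replicate 2 or 5 or any of the wild-type libraries (adjusted p 0.0529 to 0.141), and the second without Braf Arid1a KO vehicle replicate 1, the library at 30.3 CPM (0.48, adjusted p = 0.434), or any of the Arid1a KO libraries (adjusted p 0.0889 to 0.119). The second was lost in 11 of 14 alternatives in all, among them RLE scaling (adjusted p = 0.0697) and DESeq2 (adjusted p = 0.0537), and the first in 10 of 13. Within vehicle, Cbx7 was higher in Braf Arid1a KO than in Braf, with a log2 fold change of 2.06 (SE 0.46, adjusted p = 0.00765), or 1.43 (adjusted p = 0.0751) without that same library. Of the 10 fibroblast markers 8 were called lower in that comparison, with sums of 379 to 929 CPM in Braf Arid1a KO and 1129 to 24165 in Braf, and their part was not tested. Under CKI, Braf Smarcb1 KO had more Cbx7 than Braf (1.51, SE 0.45, adjusted p = 0.0239). That call was lost without any of the Braf CKI libraries or without Braf Smarcb1 KO CKI replicate 1 or 4 (adjusted p 0.0540 to 0.0944).

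Cbx2, another PRC1 reader, had few counts. Its Braf libraries were at 1.43, 0.904 and 1.30 CPM under vehicle and 2.99, 1.81 and 3.06 under CKI. These did not overlap but missed the threshold (log2 fold change 1.12, adjusted p = 0.170), as did each other genotype. The average over genotypes was 0.86 (SE 0.28, adjusted p = 0.0325). It was lost without any 1 of 11 libraries: Braf vehicle 4 and CKI 1 and 5, Braf Arid1a KO vehicle 1 and CKI 5, Braf Arid2 KO vehicle 4 and CKI 3 and 4, and Braf Smarcb1 KO vehicle 1 and 3 and CKI 4 (adjusted p 0.0514 to 0.108). It was 0.22 with the leukocyte level in the fit (adjusted p = 0.905) and 0.62 with the cell cycle level (adjusted p = 0.323), and the call was also lost without the filter (adjusted p = 0.0586). Over all 28 libraries Cbx2 ran against the leukocyte level with a Pearson r of -0.73, and Cbx7 with -0.52; libraries share groups and depth, and these values are descriptions.

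Mutant Braf with its vehicle dosing raised 4 of the 5 PRC1 members on the Arid1a KO background, and none of the 5 PRC2 members was called. Over all 10 members that is 4, where 40.5% of all genes were called in either direction. The median log2 fold change over the 5 PRC1 members was 1.08, against -0.01 over all genes, of which 21.3% were called higher. Cbx2 went from 0.562, 0.686 and 0.167 CPM in Arid1a KO to 1.62, 2.00 and 1.85 in Braf Arid1a KO under vehicle. The groups were apart (1.93, SE 0.56, adjusted p = 0.00853), and without Arid1a KO replicate 3 the change was 1.54 (adjusted p = 0.0516). Cbx8 went from 4.79, 13.1 and 5.56 CPM to 17.3, 20.5 and 11.7 CPM. These overlapped in 1 library of each group, with a log2 fold change of 1.08 (SE 0.34, adjusted p = 0.0135), lost without Braf Arid1a KO vehicle replicate 2 or Arid1a KO replicate 1 or 3 (adjusted p 0.0641 to 0.104). Rnf2, the catalytic subunit of PRC1, went from 47.5, 85.4 and 63.8 CPM to 106, 94.8 and 119 CPM. Those groups were apart (0.70, SE 0.23, adjusted p = 0.0182), with the call lost without Braf Arid1a KO vehicle replicate 1 or 3 or Arid1a KO replicate 1 (adjusted p 0.0612 to 0.158). With the replicate number as a block in a fit of these 6 libraries, Cbx2 and Cbx8 were called and Rnf2 (adjusted p = 0.0867) and Cbx7 (adjusted p = 0.0634) were not, so 2 of the 10 members remained. The leukocyte covariate ended all 4 calls. Markers of many cell types differed between these groups: leukocyte markers summed to 2211 to 3974 CPM in Arid1a KO and 458 to 1048 in Braf Arid1a KO, and the 10 fibroblast markers to 10206 to 14260 and 379 to 929. The 14 thyroid follicular markers summed to 46044 to 74256 and 1087 to 2140 CPM, the 10 endothelial to 2213 to 2968 and 50.6 to 69.2, the 6 C cell to 4843 to 12930 and 23.7 to 84.7, and the 9 macrophage to 3372 to 7678 and 381 to 1534. What these cells contribute to the members' counts was not tested.

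With intact Arid1a, Cbx8 gave the steadiest PRC1 result against wild type. Wild-type libraries were at 7.50, 5.22 and 8.07 CPM and Braf vehicle libraries at 22.4, 13.2 and 17.4. The groups were apart, with a log2 fold change of 1.35 (SE 0.34, adjusted p = 0.00696), which passed in all 13 alternatives run (adjusted p up to 0.0443). Under CKI, Braf stayed above wild type at 14.4, 16.1 and 14.0 CPM (1.09, SE 0.34, adjusted p = 0.0277). The CKI call was lost without Braf CKI replicate 1 or 4 or wild-type replicate 1 or 2 (adjusted p 0.0582 to 0.122). Rnf2 went from 86.3, 62.7 and 70.6 CPM in wild type to 155, 109 and 103 in Braf under vehicle. It rose by 0.74 on the log2 scale (SE 0.23, adjusted p = 0.0246), or by 0.52 (adjusted p = 0.147) without Braf vehicle replicate 2, and the call was also lost without wild-type replicate 2 or 3 (adjusted p = 0.108 and 0.0753). Cell markers differed widely between Braf under vehicle and wild type. Of the thyroid follicular markers 11 of 14 were lower (sums of 821 to 1475 and 64763 to 163702 CPM), of the fibroblast markers 7 of 10 were higher (1129 to 24165 and 816 to 1530 CPM), and of the leukocyte markers 2 of 7 were higher (806 to 1420 and 353 to 613 CPM). C cell markers summed to 34.1 to 155 CPM in Braf and 13169 to 35332 in wild type (1 of 6, Sst, at 0 in Braf), parathyroid markers to 17.8 to 39.5 and 1592 to 5529, and endothelial markers to 33.3 to 701 and 2090 to 3150. Their part in the members' changes was not tested.

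Bmi1, the Pcgf subunit of canonical PRC1, was lowest in wild type (5.83, 6.03 and 6.18 CPM). Braf was at 14.3, 7.38 and 11.6 CPM under vehicle, which missed the threshold, and at 15.9, 17.7 and 9.40 CPM under CKI. The latter group was above wild type in all libraries (1.25, SE 0.33, adjusted p = 0.0117), with adjusted p = 0.0641 without Braf CKI replicate 4 and 0.0507 without wild-type replicate 1. In Braf Smarcb1 KO Bmi1 was at 12.7, 18.7 and 25.6 CPM under vehicle and 31.8, 28.1 and 23.2 under CKI. Under CKI these were all above Braf (0.95, SE 0.32, adjusted p = 0.0460), a call that leaving out any 1 of the 6 libraries ended (adjusted p 0.0518 to 0.201).

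Other genes of the complexes were taken from fixed lists: 9 further PRC2 genes, 21 further PRC1 genes and 8 genes of H2A deubiquitination and H3K27 demethylation, including cofactors. With Smarcb1 loss under vehicle, 1 PRC2 gene rose, and 3 PRC1 genes rose and 3 fell. With 28.6% of all genes called there, the lists were at or below the background. Pcgf5, which forms a variant PRC1 in place of Bmi1, had 34.8 to 57.5 CPM in Braf Smarcb1 KO and 6.11 to 13.0 in Braf under vehicle. No library overlapped, and the log2 fold change of 2.41 (SE 0.39, adjusted p = 0.000131) was the largest of the 6 called. Phf19, a PRC2 accessory protein that binds methylated H3K36, had 1.76 to 13.6 CPM against 0.102 to 1.52 (3.30, SE 0.86, adjusted p = 0.00684). Pcgf6 rose by 1.87 (SE 0.52, adjusted p = 0.00985), and Scmh1, a PRC1-associated protein, fell by 0.87 on the log2 scale (SE 0.22, adjusted p = 0.00594). Under CKI, Pcgf5 was still above Braf by 1.21 (SE 0.37, adjusted p = 0.0270).

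With CKI averaged over genotypes, 5 of the 21 PRC1 genes rose and 1 fell, where 19.6% of all genes were called. Among those that rose was Bcor, a partner of the Pcgf1 form of PRC1 (0.71, SE 0.22, adjusted p = 0.0267). Phc2, which polymerises PRC1, was lower (-0.72, SE 0.15, adjusted p = 0.00120). Of the 8 genes of the third list, Usp16, an H2A deubiquitinase, was lower (-0.42, SE 0.11, adjusted p = 0.00976). On the Arid1a KO background mutant Braf raised 7 PRC1 genes and lowered 4, and raised 4 PRC2 genes and lowered 1. Of the third list it raised 3 (Bap1, Asxl2, Usp16) and lowered 2 (Foxk1, Foxk2). The share of all genes called in that comparison was 40.5%. Ring1, the paralog of Rnf2, had 0.586 to 2.99 CPM in Arid1a KO and 9.79 to 12.6 in Braf Arid1a KO (2.79, SE 0.54, adjusted p = 0.000370). Phf1, a PRC2 accessory protein, had 4.52 to 17.0 and 44.7 to 75.5 CPM (2.73, SE 0.42, adjusted p = 4.09e-05). Both were also lower in Arid1a KO than in wild type, where 3 PRC1 genes fell, and 1 PRC2 gene fell and 1 rose, with 18.6% of all genes called.

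Of 50 known Polycomb target genes, mostly developmental transcription factors that are silent in adult tissue, 26 passed the filter on low counts. Some passed only through the Braf Smarcb1 KO libraries where they are high, and had to differ there, so counts over the 26 are descriptions of single genes and not of the targets as a group. With Smarcb1 loss under vehicle, 5 of the 26 rose and 2 fell, with 28.6% of all genes called. Genes that passed only through these libraries are among the 26, so no excess over that share is read. Lhx9, a LIM homeobox factor, had 0 counts in the Braf vehicle libraries and 2.90 to 33.5 CPM in Braf Smarcb1 KO. Foxd3, a neural crest factor, had 2.05 to 4.99 CPM against 0 to 0.145, with 5 counts in all in Braf. Lhx9 reached at most 0.112 CPM and Foxd3 0.145 in libraries with intact Smarcb1. Both passed the filter through the Braf Smarcb1 KO libraries, so no p-value is given for them. Hoxa5 had 2.79 to 4.38 CPM against 0 to 0.470 (3.87, SE 0.87, adjusted p = 0.00243). Nkx2-2 was lower in Braf Smarcb1 KO (-2.64, SE 0.58, adjusted p = 0.00206). Hoxc10 had 0 counts in each of the 8 groups with intact Smarcb1 and 0.237 to 3.28 CPM in the Braf Smarcb1 KO libraries. Under CKI the loss of Smarcb1 raised 5 and lowered 2 of the 26, with 17.1% of all genes called.

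Cdkn2a and Cdkn2b, cell cycle inhibitors that Polycomb is known to silence, were higher with mutant Braf. Cdkn2b had 1.57 to 4.70 CPM in wild type and 10.4 to 56.5 in Braf under vehicle, apart in all libraries (3.16, SE 0.74, adjusted p = 0.00429). Cdkn2a had 2 counts over the wild-type libraries and 83 over the Braf vehicle libraries (adjusted p = 0.000566). Both fell with CKI in Braf Arid2 KO: Cdkn2b from 106 and 152 CPM to 8.19 and 9.69 (-3.85, SE 0.93, adjusted p = 0.0242), and Cdkn2a from 1.04 and 3.43 CPM to 0.118 and 0.143 (-4.05, SE 1.03, adjusted p = 0.0321). The Cdkn2b response differed from that of Braf (difference of log2 responses -4.38, SE 1.12, adjusted p = 0.0213), and for Cdkn2a that test gave an adjusted p of 0.104. CKI averaged over genotypes raised Nkx2-2, Cdkn1c and Tbx3 and lowered Cdkn2a, 4 of 26, where 19.6% of all genes were called. Nkx2-2 had 276 counts over the 3 Braf vehicle libraries and 1752 over the 3 Braf CKI libraries, which did not overlap in CPM.

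Across the 28 libraries, members of 1 complex did not vary as a unit. Among pairs of members, Pearson r of log2(CPM + 1) was highest for Ezh1 with Jarid2 and Ezh2 with Bmi1 (both 0.73) and lowest for Jarid2 with Bmi1 (-0.58). Ezh1 and Ezh2 had an r of -0.45, Eed and Ezh2 0.45, Eed and Suz12 -0.12, and Cbx2 and Cbx7 0.61. The cell cycle level had an r of 0.63 with Ezh2, 0.53 with Eed and -0.48 with Ezh1. These are descriptions over libraries that share groups and depth. The gene most like each member, among 15324 named genes, was Ncstn for Ezh1 (r = 0.91), Pank2 for Ezh2 (0.87), Cops5 for Eed (0.90), Thoc2 for Suz12 (0.82) and Snx33 for Jarid2 (0.86). For the PRC1 members it was Anp32b for Bmi1 (0.93), Eif3h for Rnf2 (0.89), Dvl2 for Cbx2 (0.88), Per3 for Cbx7 (0.83) and Gpd1 for Cbx8 (0.82). Hells, a chromatin remodeller of dividing cells, was the third nearest to Ezh2 (0.85).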

How the data were processed

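The authors deposited whole-number read counts per gene for the whole series, with no normalization. The tools named in the submitters' processing notes are HTSeq 0.6.1, STAR 2.4 and DESeq2, with the build mm9, and no role or order is given; the strand setting is not given in the sources used here. Samples of the Braf Arid2 KO groups (vehicle 1, CKI 2) were not analysed here, so the fits hold 28 libraries of the 30 planned. Genes passing edgeR's filterByExpr (19016) were scaled by TMM (factors 0.723 to 1.25) and fitted with a term per group (edgeR 4.0.16 glmQLFit and glmQLFTest, R 4.3.3), with Benjamini-Hochberg adjustment and a threshold of 0.05. Members, lists and tests were chosen with earlier results of these data known. The named genes are all members, up to 4 called genes with the smallest p per list and comparison, and the 3 genes nearest each member by Pearson r. Naming Hoxc10, Cdkn2a and Cdkn2b where they are not among these, and the Arid1a and Braf interaction, came after their values were seen.

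Within-group pairs of libraries (26) had a chi-square per degree of freedom of 84.5 to 393 and stayed separate replicates. The main fit used no pairing, and the values reported for each comparison come from it. For Braf Arid1a KO vehicle and Arid1a KO an alternative fit took replicate numbers as pairs. The 3 same-numbered pairs' deviations there correlated weakly, at 0.14, 0.13 and 0.19. Arid1a KO and wild type, at 0.07, 0.24 and 0.06, got no such fit of their own. Ratios use counts plus 0.5. In counts simulated for the Braf drug comparison (18314 genes), 7% of genes changed 2-fold were called, 53% of those changed 4-fold and 3 unchanged genes; for Smarcb1 loss under vehicle (18307 genes) these were 7%, 65% and 2. The alternatives tried were no filter, scaling by RLE, DESeq2 1.42.0, only the groups compared, the replicate block, leukocyte and cell cycle covariates, and each library left out.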

Additional observations from a re-analysis of the deposited data

Results flagged for a closer look

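The effect of mutant Braf with its vehicle dosing on Cbx7, against untreated mice, differed with Arid1a status. Mutant Braf went with less Cbx7 where Arid1a was intact (2.95 to 6.37 CPM in Braf under vehicle, 9.32 to 14.1 in wild type) and with more where it was lost (10.9 to 30.3 CPM in Braf Arid1a KO under vehicle, 7.62 to 9.36 in Arid1a KO). Tested as a difference of the 2 effects in edgeR, after the opposite signs had been seen, the log2 difference was 2.50 (SE 0.64, adjusted p = 0.00788), with 22.2% of all genes called in the same test. It stayed under the threshold without any 1 of the 12 libraries (adjusted p up to 0.0431) and was 2.00 (adjusted p = 0.322) with the leukocyte level in the fit. Cbx7 was the single member called in that test, and Cbx2 had an unadjusted p under 0.05. The 7 leukocyte markers summed to 2211 to 3974 CPM in Arid1a KO and 353 to 613 in wild type.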

How the results depend on the processing

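Over 19 counts of called members and 282 alternatives, 218 counts stayed within 1.5 times the main count and 64 moved, and of 370 refits of a called member 236 kept the call, 134 lost it and 0 reversed. The leukocyte covariate left 0 members called for CKI in Braf, in Braf Arid1a KO and in the average, 0 for Braf Arid1a KO against Arid1a KO and for the Braf and Arid1a interaction, and 1 for Smarcb1 loss under vehicle and under CKI and for Braf under vehicle and CKI against wild type. The cell cycle covariate left 0 for CKI in Braf Smarcb1 KO, gave 2 for Braf under vehicle against wild type (Cbx8, and Bmi1 as an added call), and called 1 for the Arid2 response difference. Fits of only the groups compared left 0 for CKI in Braf Arid1a KO and Braf Smarcb1 KO and for Arid1a and Smarcb1 loss under vehicle, and 1 for Braf under vehicle against wild type and for Braf Arid1a KO against Arid1a KO. Without a filter 0 remained for CKI in Braf Arid1a KO, 1 for Smarcb1 loss under CKI and for both Braf groups against wild type, and 2 for Braf Arid1a KO against Arid1a KO. DESeq2 called 3 for CKI in Braf and 2 for CKI in Braf Smarcb1 KO and for Arid1a KO against wild type. The replicate block left 0 for CKI in Braf and Braf Arid1a KO and for Smarcb1 loss under CKI. It left 1 for Braf CKI and 2 for Braf vehicle against wild type. In a fit of the 6 same-numbered libraries, added after seeing the data, it left 2 for Braf Arid1a KO against Arid1a KO. Over 23 same-numbered pairs of libraries the correlation of deviations ran from -0.54 to 0.24. Leaving out 1 library gave 0 to 2 members for CKI in Braf, 0 to 1 in Braf Arid1a KO and in Braf Smarcb1 KO, 1 to 3 in the average, 0 to 1 for Arid1a loss under vehicle, 2 to 4 for Smarcb1 loss under vehicle and 0 to 1 under CKI, 1 to 5 for Braf under vehicle, 0 to 3 under CKI and 0 to 2 for Arid1a KO against wild type, and 1 to 3 for Braf Arid1a KO against Arid1a KO. The causes of these moves were not tested, and a fit of 2 groups rests on fewer libraries. In the simulated counts, where groups of 3 libraries were changed, few 2-fold changes were recovered. Each simulation held 100 genes changed 2-fold and 100 changed 4-fold. In the data 2466 genes were called for CKI in Braf and 5433 for Smarcb1 loss under vehicle. The adjustment was therefore stricter in the simulations, and the share of 2-fold member differences missed in the data is not known. Cbx2's counts limit its precision most.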
